A study of Mus musculus with 20 samples.

Results

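The cells labelled Rec, in which wild-type Fh1 was re-expressed, were compared with clone1, a line labelled as an Fh1 deletion, by RNA sequencing of 5 libraries each. Members were chosen by sample title, 10 of the 20 libraries of the series, and all 39179 annotated genes in their count tables were considered. Of these, 12671 had enough counts to be tested. Every group of the series consists of immortalised mouse kidney epithelial cells of the C57BL/6J strain, grown in DMEM with fetal bovine serum and added uridine, so uridine was present with and without Fh1. Rec carries the genotype label Fh1 wt re-expressed and clone1 the label Fh1 deletion. The other groups, used for comparison, were Fh1_fl_fl, labelled Fh1 wt, and clone19, another line labelled Fh1 deletion, also with 5 libraries each. No further treatment, time point, dose or age is named in the labels. They do not state from which clone Rec was made, how Fh1 was put back, which part of Fh1 was deleted, or whether libraries of a group are separate cultures. The p-values therefore measure only the spread between these libraries, which may be technical. By its name clone1 is a single clone, so what is particular to that clone and what goes with its Fh1 label cannot be told apart. Rec is the only re-expressing group of the series, so the same limit holds for Rec and its label.

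Fh1 encodes fumarate hydratase, the enzyme of the tricarboxylic acid (TCA) cycle that turns fumarate into malate. Cells without it accumulate fumarate, which can inhibit enzymes that use 2-oxoglutarate, among them the prolyl hydroxylases that mark hypoxia-inducible factors (HIF) for destruction and the demethylases of DNA and histones. Fumarate can also modify cysteines of KEAP1, the protein that holds the antioxidant regulator NRF2 in check. In kidney epithelium, loss of the enzyme underlies cysts and a hereditary form of renal cancer, and loss of epithelial character has been described in such cells.

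Gene totals ran from 8672778 to 17826881 counts in Rec and from 6681589 to 12171975 in clone1. A count of 0 allows up to 3 counts, or 0.168 to 0.449 CPM (counts scaled to a common library size) in single libraries of these groups, from counting error alone. Along the first principal component, which held 88.69% of the variance among the 10 libraries, all Rec libraries lay on one side and all clone1 libraries on the other. On the second, with 2.78%, clone1 replicate 1 and Rec replicate 2 stood apart from their groups. Without clone1 replicate 1 the counts given next would be 9879 genes changed and 2820 changed over 2-fold. Of the 9 kidney epithelial markers, all were counted in both groups, with a summed level of 4355 to 4794 CPM in Rec and 2653 to 3294 in clone1. The loop of Henle gene Umod was at 0 in all 10 libraries.

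Fh1 itself (ENSMUSG00000026526, chr1:175600374-175625635 (-); coordinates and strands here and below are on GRCm38) was counted in every library and was lowest in Rec. The Rec libraries had 63.8, 76.3, 80.7, 69.1 and 66.3 CPM (replicates 1 to 5) and the clone1 libraries 123, 111, 108, 109 and 112. The ranges did not overlap, and clone1 replicate 1 was the highest. The mean was 71.3 ± 7.08 CPM in Rec and 112 ± 5.93 in clone1 (SD, n = 5 here and below), a log2 fold change of -0.66 (SE 0.071, adjusted p = 3.49e-09). Clone19 had 84.7 ± 7.31 CPM and Fh1_fl_fl 92.3 ± 6.16. The level of the targeted gene thus does not follow the 2 labels. Since the deleted part and the way Fh1 was put back are not stated, what a whole-gene count shows of either is not known. The cause of the lower level in Rec was not tested. The labels are taken as given, so every direction below is between the libraries labelled Rec and those labelled clone1.

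Most genes differed between Rec and clone1, and the largest changes were losses. In the quasi-likelihood test of edgeR, 9865 genes (77.9% of those tested) changed at a Benjamini-Hochberg adjusted p under 0.05, of which 5033 (39.7%) were higher and 4832 (38.1%) lower in Rec. The 5 libraries of one group lay wholly outside the range of the other for 7965 genes (62.9%). A change shown to exceed 2-fold was called for 2787 genes (22.0%), 1156 higher (9.12%) and 1631 lower (12.9%). Estimates past 8-fold were reached by 161 of the former and 511 of the latter. The median log2 fold change over all tested genes was 0.014 and the median of its absolute value 0.61. In the plot of mean levels in the 2 groups, the lower right holds abundant clone1 transcripts that are nearly missing from Rec.

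**Figure D1:**
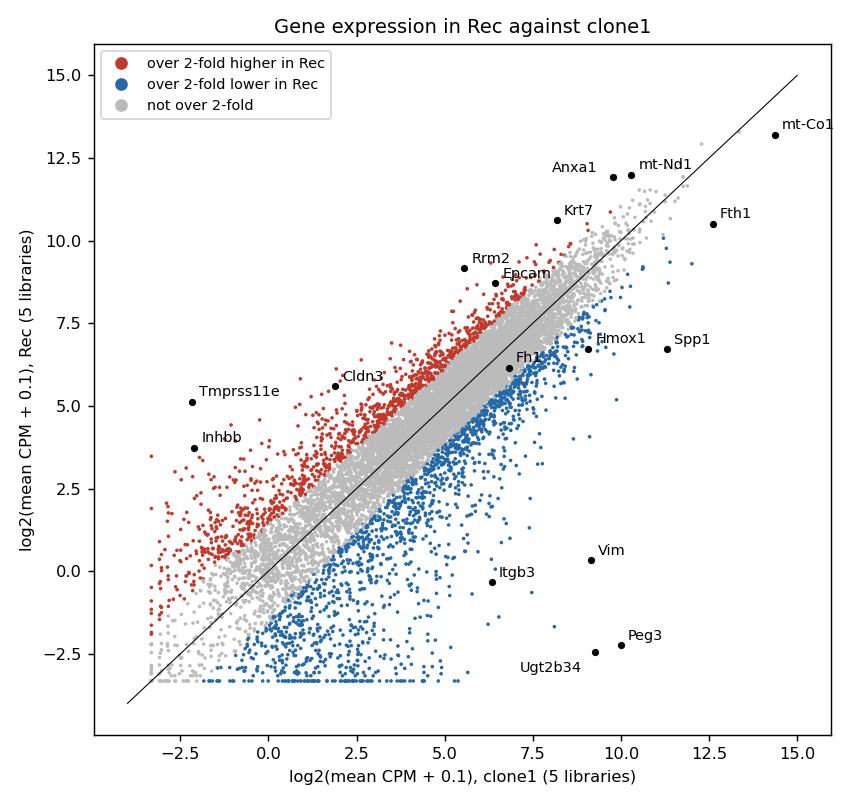
Mean level of each of the 12671 tested genes in clone1 (horizontal) and Rec (vertical), both as log2 of the mean CPM of 5 libraries plus 0.1. Red points (1156) are over 2-fold higher and blue points (1631) over 2-fold lower in Rec, black points are labelled genes drawn over theirs, and Vim, Peg3 and Ugt2b34 lie at the bottom right, with means of 566, 1015 and 620.4 CPM in clone1 and 1.16, 0.113 and 0.0826 in Rec.

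Among genes with at least 10 CPM in the higher group, the deepest fall was that of Peg3 (ENSMUSG00000002265, chr7:6703892-6730431 (-)), a paternally expressed imprinted gene for a zinc finger protein. Its clone1 libraries had 639.9, 1260.1, 1266, 1190.4 and 717 CPM and its Rec libraries 0.0934, 0.0982, 0.0817, 0.118 and 0.173. Replicates 1 and 5 of clone1 were the lowest of that group, and still far above every Rec library. The Fh1_fl_fl libraries had 135.7 to 155.8 CPM and the clone19 libraries 813.9 to 930.6, so the near absence of Peg3 was seen in Rec only. The log2 fold change was -12.93 (SE 0.28, adjusted p = 1.3e-23), on 7 counts in all in Rec. Ugt2b34, a glucuronosyltransferase with close paralogs whose shared reads make its count uncertain, went from 620.4 to 0.0826 CPM. The insulin-like growth factor binding protein gene Igfbp4 (ENSMUSG00000017493, chr11:99041244-99054392 (+)) had 331, 254, 241, 253 and 302 CPM in clone1 and 0.187, 0, 0.409, 0.235 and 0.231 in Rec, again without overlap, with a log2 fold change of -10.22 (SE 0.20, adjusted p = 1.84e-24).

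Further genes of this group had no count at all in the 5 Rec libraries, so their fold changes are lower bounds against 3 counts over the whole group. The lipid desaturase gene Fads6 (41.5 ± 5.05 CPM in clone1) was at least 818-fold lower, R3hdml (38.7 ± 2.56 CPM) at least 767-fold, and the mucin gene Muc5b (28.1 ± 10.6 CPM) at least 564-fold. For Rgs17, which restrains G protein signalling, the bound was 426-fold lower, for the transcription factor Twist2 416-fold, for the iron-binding nuclear protein gene Pir 414-fold, for Nt5e, the surface enzyme that makes adenosine, 404-fold, for the endodermal factor Foxa2 334-fold, and for Adam23 318-fold. The aldehyde dehydrogenase Aldh3a1 had 1 count in Rec, and its clone1 level (50.2 ± 4.58 CPM) was 2986 times as high, with an exact 95% counting interval of 535 to 117982. In the other deletion line, clone19, Nt5e was at 44.5 ± 2.44 CPM, Fads6 at 3.09 ± 0.762 and R3hdml at 0.0904 ± 0.152.

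Among the protein-coding genes that fell over 2-fold without overlap, the 6 most counted were Fth1, Ftl1, Spp1, Aldoa, Tpi1 and Cltc. Spp1, which encodes osteopontin (ENSMUSG00000029304, chr5:104435118-104441050 (+)), had 3004, 2456, 2199, 2328 and 2587 CPM in clone1 and 106, 108, 105, 106 and 96.1 in Rec, with a log2 fold change of -4.59 (SE 0.092, adjusted p = 3.52e-24). Spp1 had 1029 to 1219 CPM in Fh1_fl_fl and 1454.5 to 1997 in clone19, so the low level of this gene too was seen in Rec only. The ferritin heavy chain gene Fth1 fell from 6233 ± 765 to 1467 ± 153 CPM and the light chain gene Ftl1 from 2599 ± 315 to 421 ± 27.7 CPM. The glycolytic genes Aldoa and Tpi1 and the clathrin heavy chain gene Cltc had log2 fold changes of -2.71, -2.04 and -1.52. More highly counted still was mt-Co1, which fell without passing the 2-fold test and is described below.

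The largest rises started from low levels in clone1. Ano3, of a family of calcium-activated channels and scramblases, had no count in clone1 and 11.01 ± 1.67 CPM in Rec, at least 178-fold higher. The serine protease gene Tmprss11e (ENSMUSG00000054537, chr5:86705186-86745815 (-)) had 0, 0, 0.1099, 0.152 and 0.347 CPM in clone1 and 40.8, 27.7, 36.2, 34.8 and 34.2 in Rec, a log2 fold change of 7.98 (SE 0.24, adjusted p = 7.31e-21). Inhbb, the activin beta B subunit, rose from 0.131 ± 0.138 to 13.2 ± 1.42 CPM, and Lepr, the leptin receptor, from 1.77 ± 0.406 to 56.4 ± 5.42 CPM. Padi1, which converts arginine in proteins to citrulline, rose by 6.09 on the log2 scale, the phospholipid flippase gene Atp8b1 by 5.70, the transcription factor gene Myb by 5.66, Klhdc7a by 5.51, Tchh, which encodes trichohyalin, by 5.20, the actin-binding Xirp2 by 4.91, the Wnt5a receptor gene Ror1 by 4.38 and Moxd1 by 4.34. Xirp2 stood at 23.8 ± 3.86 CPM in Rec and at 0.0853 ± 0.0915 in Fh1_fl_fl, so a gain over clone1 did not always come with a level like that of the Fh1 wt cells.

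Among protein-coding genes that rose over 2-fold without overlap, the most counted were Anxa1, mt-Nd1, Hspa8, Krt7, Hsp90aa1 and mt-Nd2. Annexin A1 (ENSMUSG00000024659, chr19:20373428-20390944 (-)), a membrane-binding protein that dampens inflammation, had 971, 869, 904, 832 and 840.3 CPM in clone1 and 3475, 4095, 4032, 3948 and 3751 in Rec. Its log2 fold change was 2.13 (SE 0.084, adjusted p = 2.6e-18). The chaperone genes Hspa8 and Hsp90aa1 rose by 1.17 and 1.47 on the log2 scale.

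Genes were then followed in 25 functional lists. They are shown together in the plot of log2 fold changes by list, where the NRF2, glycolysis, HIF and mesenchymal lists have the lowest medians and the epithelial list the highest.

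**Figure D2:**
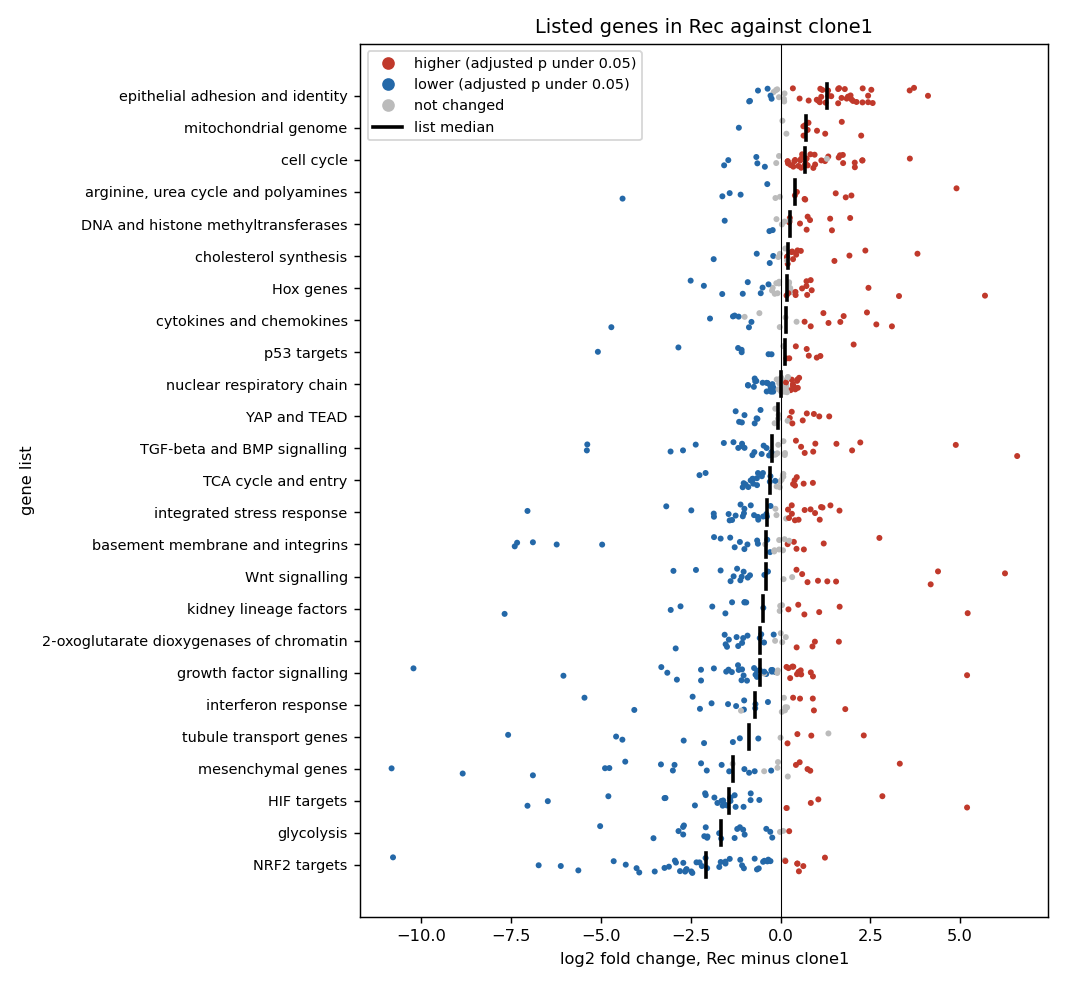
Log2 fold change, Rec minus clone1, of the tested members of each of 25 gene lists, ordered by the list's median (black bar). Red and blue points are genes higher and lower in Rec at an adjusted p under 0.05, grey points did not pass, and the medians run from -2.07 for the NRF2 targets to 1.29 for the epithelial genes.

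Epithelial genes were higher in Rec as a group. Of 46 tested members, 33 rose (71.7%, against 39.7% of all genes) and 6 fell. Rises over 2-fold were called for 24 members and no such fall was called. The list's median log2 fold change was 1.29, against 0.014 over all genes. E-cadherin (Cdh1, ENSMUSG00000000303, chr8:106603351-106670246 (+)), the adhesion protein of adherens junctions, had 172, 158, 135, 159 and 217 CPM in clone1 and 400.5, 348, 322, 362 and 365 in Rec. The groups did not overlap, and the log2 fold change was 1.09 (SE 0.097, adjusted p = 7.56e-11). Epcam (ENSMUSG00000045394, chr17:87635979-87651129 (+)), another adhesion protein of the epithelial surface, had 104, 83.2, 68.6, 80.7 and 96.99 CPM in clone1 and 416, 444, 400.4, 424 and 424 in Rec, a log2 fold change of 2.28 (SE 0.081, adjusted p = 2.28e-19).

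Tight junctions seal the space between epithelial cells. Among their genes 9 of 12 rose, with Cldn3 (ENSMUSG00000070473, chr5:134986214-134987472 (+)) first: 4.78, 2.42, 4.07, 3.05 and 3.81 CPM in clone1 and 48.1, 54.3, 50.8, 48.8 and 39.5 in Rec, a log2 fold change of 3.72 (SE 0.17, adjusted p = 4.25e-17). Occludin (Ocln) rose from 11.9 to 71.4 CPM and Cldn7 from 41.7 to 150.1 CPM, while Cldn4 had 275 and 252 CPM (adjusted p = 0.146). The scaffold gene Tjp1 and the junctional adhesion molecule gene F11r went the other way, Tjp1 from 469 ± 74.9 to 256 ± 35.5 CPM. In clone1 replicate 1, Tjp1 was lower than in the rest of that group. Desmosomal genes, which tie keratin filaments to the cell border, were mixed, with 4 of 7 higher (Dsp, Dsg2, Pkp3 and Perp) and 2 lower (Pkp2 and Jup). Of 4 keratin genes, Krt7, Krt8 and Krt18 rose, Krt7 from 289.5 ± 20.7 to 1569 ± 136 CPM, and Krt19 stood at 638 and 681 CPM (adjusted p = 0.207).

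Surface and trafficking genes included the largest rise of the epithelial list. Mal2, a tetraspan protein of apical transport, had 2.29, 2.42, 1.87, 1.98 and 2.51 CPM in clone1 and 36.2, 40.8, 37.6, 38.2 and 41.02 in Rec, with a log2 fold change of 4.11 (SE 0.12, adjusted p = 3.23e-21). Its Fh1_fl_fl level, 399.8 ± 21.4 CPM, was higher still. Rab25, a small GTPase of apical recycling, went from 1.69 ± 0.278 to 20.9 ± 1.24 CPM. All 7 listed regulators of epithelial transcription and splicing rose, namely Ovol1, Ovol2, Elf3, Ehf, Grhl2, Esrp1 and Esrp2. Among them Grhl2, which activates junction genes, rose from 23.6 to 90.8 CPM and Esrp1, which directs epithelial splicing, from 37.5 to 183 CPM. No cause of these rises was tested.

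The E-box CACCTG is the sequence bound by the repressors ZEB1, ZEB2 and SNAI2, whose genes are described next. In the 250 bases before the start site, on either strand, it was present in 9 of 17 RefSeq windows (52.9%) of the 13 matched genes among the 24 over 2-fold higher, and in 17.2% of all 32851 windows of the same length. The windows of Rab25 and Ocln are shown because these genes had the largest rises among those with a match (Rab25 rose by 3.60 and Ocln by 2.56 on the log2 scale). Sequences are from RefSeq on GRCm38.p6, read 5′ to 3′ on the gene's strand and ending at the base before the start site. Capitals mark CACCTG or its reverse complement CAGGTG. A match is a description of the letters, not a site of binding.
Rab25, chr3:88548280-88548529, minus strand: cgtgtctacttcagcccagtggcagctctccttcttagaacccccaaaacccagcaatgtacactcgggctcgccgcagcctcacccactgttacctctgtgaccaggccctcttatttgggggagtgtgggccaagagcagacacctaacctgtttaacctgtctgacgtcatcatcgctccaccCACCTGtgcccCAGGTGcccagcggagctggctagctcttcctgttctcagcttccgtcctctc
Ocln, chr13:100552499-100552748, minus strand: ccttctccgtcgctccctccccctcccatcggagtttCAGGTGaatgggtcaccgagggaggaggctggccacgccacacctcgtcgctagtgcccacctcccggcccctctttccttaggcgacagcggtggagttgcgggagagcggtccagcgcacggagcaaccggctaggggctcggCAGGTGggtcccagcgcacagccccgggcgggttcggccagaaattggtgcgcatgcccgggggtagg

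Mesenchymal genes were mostly lower in Rec: 5 of 27 tested members rose and 17 fell, 13 of them over 2-fold, with a median of -1.33. That is 18.5% higher and 62.96% lower, against 39.7% and 38.1% of all genes, and 48.1% over 2-fold lower, against 12.9%. Vimentin (Vim, ENSMUSG00000026728, chr2:13573927-13582826 (+)), the intermediate filament protein of mesenchymal cells, had 621, 530.3, 554, 532 and 593 CPM in clone1 and 0.934, 1.08, 1.23, 0.941 and 1.62 in Rec. No library of one group came near the other, and the log2 fold change was -8.85 (SE 0.11, adjusted p = 6.86e-29). Clone19 had 69.5 ± 3.34 CPM and Fh1_fl_fl 7.66 ± 1.01.

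The transcription factors that repress epithelial genes fell as well. Zeb1 (ENSMUSG00000024238, chr18:5591860-5775467 (+)) had 40.5, 53.3, 48.6, 51.4 and 58.7 CPM in clone1 and 2.06, 0.884, 1.72, 2.12 and 1.74 in Rec, a log2 fold change of -4.89 (SE 0.16, adjusted p = 3.47e-20). Zeb2 fell from 69.3 ± 7.57 to 6.94 ± 1.66 CPM and Snai2 from 14.4 ± 0.836 to 1.85 ± 0.776 CPM, and Twist2 was the gene with no count in Rec named above. Twist1 had 15.2 and 17.6 CPM (adjusted p = 0.0729). Snai1 was among the listed genes too low to test.

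Adhesion and matrix genes of the list fell more often than they rose. Of 8 adhesion and receptor genes 5 fell and 2 rose, and of 9 matrix genes 5 fell and 1 rose. Over all genes 38.1% fell and 39.7% rose. The integrin beta 3 gene Itgb3 had 73.3, 88.8, 70.9, 78.8 and 89.3 CPM in clone1 and 0.5604, 0.295, 0.572, 1.41 and 0.636 in Rec, a log2 fold change of -6.89 (SE 0.17, adjusted p = 2.21e-22), and the collagen receptor gene Ddr2 fell from 33.9 to 1.23 CPM. N-cadherin (Cdh2), a mesenchymal cadherin that kidney tubule cells also make, went the other way, from 205 to 364 CPM. The matrix gene Postn, which encodes periostin, rose from 0.666 ± 0.642 to 6.24 ± 0.632 CPM. Fibronectin (Fn1) had 1597 ± 365 CPM in clone1 and 1519 ± 258 in Rec (adjusted p = 0.666), and the sign of this small difference turned when clone1 replicate 5 was left out. In these bulk libraries, fewer cells making a transcript and less of it per cell cannot be told apart.

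**Figure D3:**
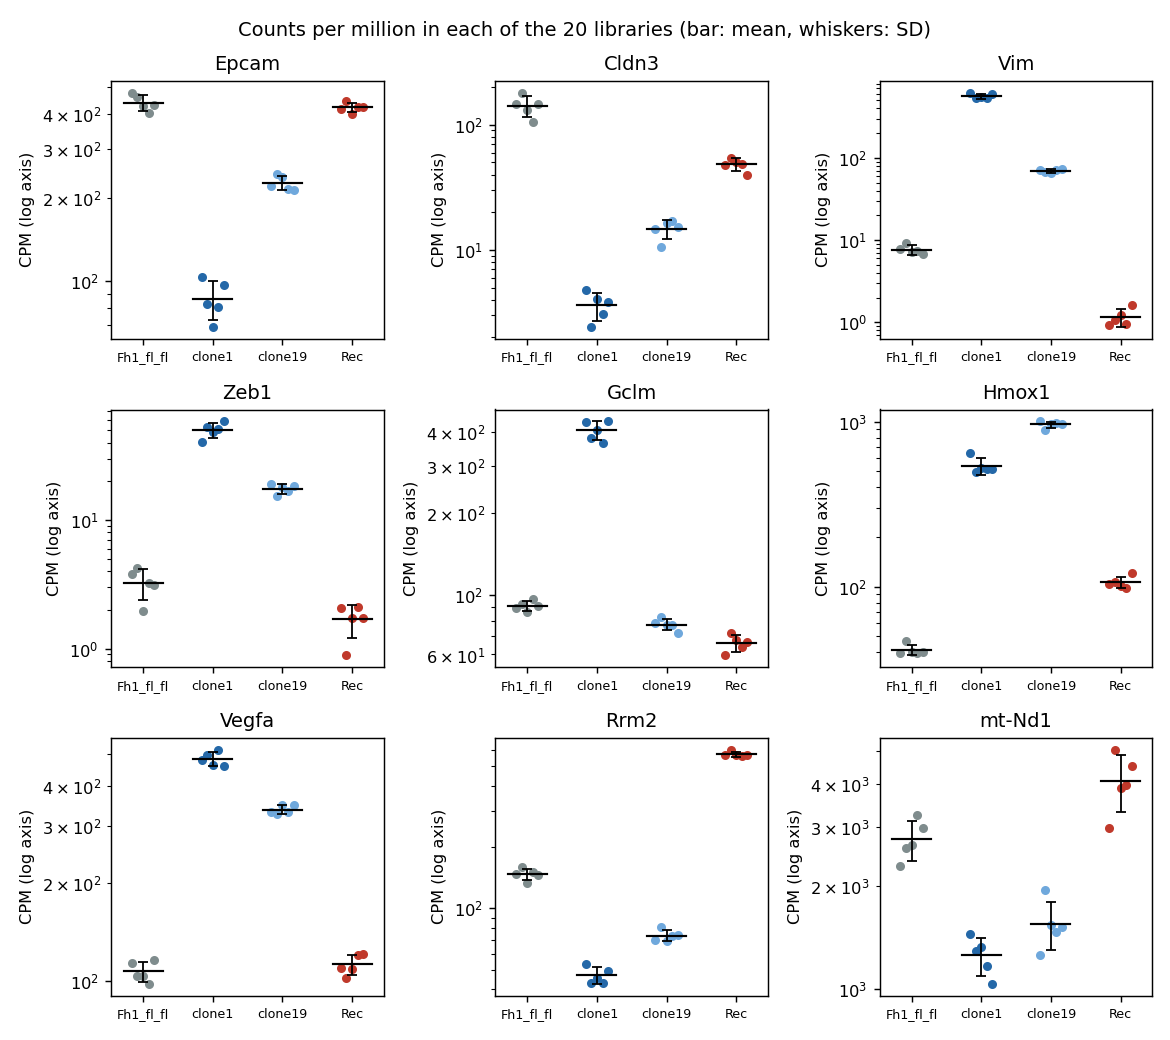
Level of 9 listed genes in each of the 20 libraries, in CPM on a log axis, by group, with the mean (bar) and SD (whiskers) over 5 libraries. Epcam, Cldn3, Rrm2 and mt-Nd1 are higher in every Rec library than in every clone1 library, and Vim, Zeb1, Gclm, Hmox1 and Vegfa are lower.

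Genes regulated by NRF2, which switches on glutathione synthesis, detoxifying enzymes and iron handling, formed the list with the lowest median, -2.07. Of 48 tested members, 41 fell (85.4%, against 38.1% of all genes), 31 of them over 2-fold, and 6 rose. The gene for NRF2 itself, Nfe2l2, fell from 258 ± 14.2 to 119 ± 9.03 CPM, and Keap1, its inhibitor, rose from 30.2 ± 2.49 to 46.8 ± 2.23 CPM.

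Hmox1 (ENSMUSG00000005413, chr8:75093621-75100589 (+)), which breaks down heme, had 649, 494, 528, 514 and 515 CPM in clone1 and 104, 108, 101, 98.9 and 121 in Rec, with clone1 replicate 1 above the others. Its log2 fold change was -2.34 (SE 0.072, adjusted p = 1.51e-20). Nqo1, a quinone reductase, fell from 17.2 ± 1.298 to 3.09 ± 0.788 CPM, with a log2 fold change of -2.46 (SE 0.15, adjusted p = 2.49e-14). The cystine transporter gene Slc7a11 (ENSMUSG00000027737, chr3:49892526-50443614 (-)) had 526, 639.9, 639, 659 and 816 CPM in clone1 and 135, 88.7, 114, 116 and 131 in Rec, a log2 fold change of -2.48 (SE 0.14, adjusted p = 3.04e-15). Both subunits of the enzyme that limits glutathione synthesis fell, Gclc from 331 ± 13.6 to 52.5 ± 3.81 CPM and Gclm from 406 ± 33 to 66.1 ± 4.78 CPM.

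Glutathione transferases were among the deepest falls: Gsta1 from 169 ± 14.5 to 2.38 ± 0.543 CPM and Gsta2 from 6.597 ± 0.846 to 0.0509 ± 0.0852 CPM, near-identical copies whose shared reads make both counts uncertain, and Gsta4 from 402 to 15.9 CPM. Genes that supply NADPH were less uniform, with Me1, the malic enzyme, at 1218 ± 53.4 CPM in clone1 and 255 ± 8.22 in Rec, and G6pdx at 154 and 169. The thioredoxin gene Txn1 was the member that moved most against the list, rising from 225 ± 26.8 to 530.0 ± 52.6 CPM, while the thioredoxin reductase gene Txnrd1 fell from 619 to 407 CPM.

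The antioxidant response element that NRF2 binds was searched for as TGACNNNGC on both strands. It lay in 7 of 33 windows (21.2%) of the 25 matched genes among the 31 over 2-fold lower, against 10.2% of all windows. The windows of Gsta3, Mgst1 and Gclm are shown, the genes with the largest falls among those with a match (log2 fold changes of -5.63, -4.31 and -2.62), with the match in capitals, reverse complement included.
Gsta3, chr1:21240335-21240584, plus strand: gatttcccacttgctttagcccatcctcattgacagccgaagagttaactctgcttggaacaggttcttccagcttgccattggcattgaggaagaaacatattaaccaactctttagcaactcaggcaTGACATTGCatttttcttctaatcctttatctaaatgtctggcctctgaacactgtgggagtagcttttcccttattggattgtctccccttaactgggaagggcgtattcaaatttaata
Mgst1, chr6:138140277-138140526, plus strand: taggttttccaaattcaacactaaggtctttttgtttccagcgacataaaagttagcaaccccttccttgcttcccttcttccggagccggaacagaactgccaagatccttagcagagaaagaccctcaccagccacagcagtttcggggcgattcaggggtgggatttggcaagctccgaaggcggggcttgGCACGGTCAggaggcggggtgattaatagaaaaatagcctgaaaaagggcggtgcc
Gclm, chr3:122245307-122245556, plus strand: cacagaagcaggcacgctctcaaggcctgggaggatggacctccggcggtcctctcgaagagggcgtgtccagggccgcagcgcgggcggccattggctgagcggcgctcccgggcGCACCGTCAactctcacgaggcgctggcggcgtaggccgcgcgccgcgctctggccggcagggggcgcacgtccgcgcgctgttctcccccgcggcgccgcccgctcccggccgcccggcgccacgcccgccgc

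HIF targets, genes induced in low oxygen, were also lower. Of 30 tested, 24 fell (80%, against 38.1% of all genes) and 5 rose (16.7%, against 39.7%), with a median of -1.45. Falls over 2-fold were called for 20 (66.7%, against 12.9% of all genes). The angiogenic factor Vegfa (ENSMUSG00000023951, chr17:46016993-46032369 (-)) had 479, 498, 462, 516 and 459.8 CPM in clone1 and 109.5, 102, 109, 120.4 and 122 in Rec, a log2 fold change of -2.10 (SE 0.06, adjusted p = 2.75e-21). The vasodilator peptide gene Adm fell from 10.7 ± 1.51 to 0.396 ± 0.195 CPM and the oxidoreductase gene Ero1l from 891 ± 85.7 to 94.9 ± 6.88 CPM. Selenbp1, on the same list, fell from 5.62 ± 0.746 to 0.0537 ± 0.0824 CPM, a Rec level of very few reads. Bnip3, which directs mitochondria to autophagy, fell from 568 to 61.5 CPM. The prolyl hydroxylase genes that HIF itself induces fell, Egln3 from 62.9 to 21.3 CPM and Egln1 from 212 to 104 CPM. Hif1a, whose protein is regulated mainly by its stability, had 343 and 384 CPM, a log2 fold change of 0.16 (SE 0.062, adjusted p = 0.0186). Against the list, Igfbp3 was at 0 in clone1 and at 0.436 ± 0.294 CPM in Rec, at least 6.46-fold higher, and the lipase inhibitor gene Angptl4 rose from 3.39 to 24.8 CPM. The core ACGTG or GCGTG that HIF binds was in 14 of 21 windows (66.7%) of the 15 matched genes that fell over 2-fold, and in 38.6% of all windows.

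Most glycolytic genes fell. Of 23 members, 20 fell, 15 over 2-fold, and the median was -1.65 (86.96% lower, against 38.1% of all genes). The neuronal-type enolase gene Eno2 (ENSMUSG00000004267, chr6:124760053-124769673 (-)) had 46.8, 50.1, 48.3, 55.4 and 36.2 CPM in clone1 and 1.03, 0.688, 2.04, 1.76 and 1.56 in Rec, a log2 fold change of -5.02 (SE 0.19, adjusted p = 6.95e-19). The glucose transporter gene Slc2a1 fell from 364 ± 57 to 86.1 ± 5.93 CPM (log2 fold change -2.08, SE 0.094), Aldoc from 21.8 to 3.11 CPM and Ldhb from 206 to 17.8 CPM. Ldha, the lactate dehydrogenase subunit that favours lactate, fell from 2363 ± 247 to 1078 ± 58.1 CPM. The most counted member, the pyruvate kinase gene Pkm, had 3783 ± 204 and 3224 ± 110.1 CPM, a log2 fold change of -0.23 (SE 0.058, adjusted p = 0.000807). The lactate transporter gene Slc16a1 was the only member called higher, at 0.24 (SE 0.091, adjusted p = 0.0192), and it did not pass with DESeq2, in the fit of these 10 libraries alone, or without Rec replicate 5 or clone1 replicate 2 or 3.

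Changes in the TCA cycle were smaller. 18 of 31 genes fell and 6 rose, but only 2, Me1 and the pyruvate carboxylase gene Pcx, did so over 2-fold, and the median was -0.30 (19.4% higher and 58.1% lower, against 39.7% and 38.1% of all genes). Sdha, the catalytic subunit of succinate dehydrogenase, fell from 420.1 ± 25.4 to 202 ± 11.02 CPM and Idh2 from 294 to 144 CPM. Dld, a subunit shared by the pyruvate and 2-oxoglutarate dehydrogenases, rose from 190.0 ± 13.5 to 355 ± 23.2 CPM, and Cs, which encodes citrate synthase, from 453 to 619.8 CPM. Mdh2, which acts on the malate made by fumarate hydratase, had 421 and 415 CPM (adjusted p = 0.77).

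Respiratory chain genes of the nucleus and of the mitochondrial genome were counted separately. Of 49 nuclear genes, 11 rose, 18 fell and 20 did not pass, none over 2-fold, with a median of 0.019 (77.9% of all tested genes changed). The sign of this median was not stable, at -0.059 without Rec replicate 2 and 0.073 without clone1 replicate 1, where 15 rose and 16 fell. Ndufa1 fell from 54.2 ± 8.17 to 29.04 ± 3.27 CPM and Ndufa9 from 248 ± 21.2 to 133 ± 9.71 CPM, both complex I subunits, and the ATP synthase gene Atp5b rose from 1726 ± 102 to 2409 ± 100.2 CPM. Of 12 mitochondrial genes, 9 rose and 1 fell, and the median was 0.72 (75% higher and 8.33% lower, against 39.7% and 38.1% of all genes). Over 2-fold, 3 of the 12 rose (25%, against 9.12% of all genes). The complex I subunit gene mt-Nd1 (ENSMUSG00000064341, chrM:2751-3707 (+)) had 1452, 1289.5, 1326, 1163 and 1032 CPM in clone1 and 2964, 5052, 3896, 3989 and 4525 in Rec, a log2 fold change of 1.71 (SE 0.12, adjusted p = 1.16e-12). The complex IV subunit gene mt-Co1 (ENSMUSG00000064351, chrM:5328-6872 (+)) went the other way, with 22421, 22838, 21462, 20873 and 17857 CPM in clone1 and 6276, 11115, 9159, 9748 and 10865 in Rec, a log2 fold change of -1.16 (SE 0.12, adjusted p = 8.72e-10). Rec replicate 1 was the lowest of its group for mt-Co1, and Rec replicate 2 the highest. The mitochondrial genome took 2.56 to 4.27% of all counts in Rec and 2.97 to 3.94% in clone1, ranges that overlap.

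The integrated stress response, in which protein synthesis is restrained while ATF4 induces genes of amino acid supply, was divided. 14 of 38 tested members rose and 21 fell, with a median of -0.39 (36.8% higher and 55.3% lower, against 39.7% and 38.1% of all genes). Ddit3 (ENSMUSG00000025408, chr10:127290774-127296288 (+)), the factor CHOP, had 382, 333, 326, 338 and 328 CPM in clone1 and 33.7, 41.7, 39.9, 33.4 and 38.9 in Rec, a log2 fold change of -3.18 (SE 0.074, adjusted p = 4.48e-23). The pseudokinase gene Trib3 fell from 201 ± 19.2 to 73.6 ± 1.82 CPM, and Nupr1 from 136 ± 9.44 to 37.4 ± 3.38 CPM. Atf4 itself rose from 649 ± 51.2 to 857 ± 45.5 CPM. Genes of serine and one-carbon metabolism included rises, Shmt2 from 189.8 to 497 CPM and Psat1 from 1348 ± 72.6 to 1673 ± 58.98 CPM, beside Aldh1l2, which fell from 269.8 to 133 CPM. Amino acid transporters parted likewise, with Slc7a11 and Slc1a4 lower and Slc7a5 and Slc38a2 higher, Slc7a5 from 207 to 466 CPM.

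Arginine and polyamine genes changed in both directions, 8 higher and 5 lower of 15, with a median of 0.40 (53.3% higher and 33.3% lower, against 39.7% and 38.1% of all genes). Argininosuccinate lyase (Asl), the urea cycle enzyme that releases fumarate, rose from 24.7 ± 3.09 to 34.05 ± 1.51 CPM (log2 fold change 0.45 (SE 0.078, adjusted p = 7.61e-06)), while Ass1, the enzyme before it, fell from 15.4 ± 0.659 to 4.98 ± 0.807 CPM (log2 fold change -1.62 (SE 0.10, adjusted p = 4.8e-14)). Arg1 (ENSMUSG00000019987, chr10:24915221-24927484 (-)), the cytosolic arginase, had 83.9, 81.5, 79.4, 77.2 and 75.5 CPM in clone1 and 3.74, 4.91, 4.66, 2.23 and 3.18 in Rec, a log2 fold change of -4.40 (SE 0.12, adjusted p = 5.07e-22). The mitochondrial arginase gene Arg2 rose from 2.96 ± 0.697 to 11.5 ± 1.77 CPM. Ornithine decarboxylase (Odc1, ENSMUSG00000011179, chr12:17544794-17551505 (+)), which starts polyamine synthesis, had 211, 179.6, 176, 185 and 180.0 CPM in clone1 and 638, 698, 667, 640.3 and 636 in Rec, a log2 fold change of 1.81 (SE 0.057, adjusted p = 1.88e-20). The polyamine genes Amd1, Srm and Sms rose with it, and Sat1, which breaks polyamines down, fell from 228 to 105 CPM.

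Cell cycle genes were higher in Rec: 33 of 41 tested members rose and 5 fell, with a median of 0.67 (80.5% higher and 12.2% lower, against 39.7% and 38.1% of all genes). Of the 16 S phase genes 15 rose, and of the 16 mitotic genes 16. Rrm2 (ENSMUSG00000020649, chr12:24708241-24714146 (+)), the ribonucleotide reductase subunit that limits nucleotide supply, had 53.4, 43.3, 45.6, 43.2 and 49.5 CPM in clone1 and 567, 601, 564, 558 and 566 in Rec. The log2 fold change was 3.60 (SE 0.067, adjusted p = 8.79e-25). The replicative helicase gene Mcm5 rose from 68.7 ± 2.99 to 333 ± 9.79 CPM and cyclin E2 (Ccne2) from 8.92 ± 1.34 to 42.9 ± 3.77 CPM, whereas cyclin E1 (Ccne1) fell from 23.9 ± 2.52 to 8.03 ± 0.911 CPM. The proliferation marker Mki67 rose from 297 ± 54.4 to 452 ± 55.98 CPM. The cyclin-dependent kinase inhibitor gene Cdkn1b fell from 217 to 79.1 CPM and Cdkn1a rose from 43.5 to 72.1 CPM. Ccnd1, the most counted member, had 1320.0 ± 56.1 and 1281 ± 56.6 CPM (adjusted p = 0.489). Of 16 p53 targets 8 were higher and 7 lower (50% and 43.8%, against 39.7% and 38.1% of all genes). Over 2-fold, 2 were higher and 2 lower (12.5% each, against 9.12% and 12.9% of all genes). Gtse1 rose from 23.1 ± 2.198 to 94.5 ± 4.49 CPM and Eda2r fell from 11.5 ± 1.91 to 1.57 ± 0.348 CPM.

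E2F sites were searched for as TTTCCCGC or TTTGGCGC, on both strands. They were in 3 of 10 windows (30%) of the 9 matched cell cycle genes that rose over 2-fold, and in 1.3% of all windows. The windows that hold one, of Mcm5, Cdc6 and Mcm7, are printed with the match in capitals. Cdc6, which loads the helicase, rose from 12.5 to 52.6 CPM, and Mcm7 from 119 to 395 CPM. A match of TGACNNNGC, where N is any base, can also hold the HIF core ACGTG, and such shared matches were not counted.
Mcm5, chr8:75109259-75109508, plus strand: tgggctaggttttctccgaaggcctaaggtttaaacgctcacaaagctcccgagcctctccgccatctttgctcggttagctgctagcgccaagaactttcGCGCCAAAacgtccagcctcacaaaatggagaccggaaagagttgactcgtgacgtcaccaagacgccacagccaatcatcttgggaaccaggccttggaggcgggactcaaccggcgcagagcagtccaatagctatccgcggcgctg
Cdc6, chr11:98907901-98908150, plus strand: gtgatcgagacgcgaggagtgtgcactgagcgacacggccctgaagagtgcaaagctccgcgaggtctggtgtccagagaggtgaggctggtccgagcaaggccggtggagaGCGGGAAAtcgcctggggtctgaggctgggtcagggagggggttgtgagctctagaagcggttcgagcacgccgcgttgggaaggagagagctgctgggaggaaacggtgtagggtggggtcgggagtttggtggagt
Mcm7, chr5:138171884-138172133, minus strand: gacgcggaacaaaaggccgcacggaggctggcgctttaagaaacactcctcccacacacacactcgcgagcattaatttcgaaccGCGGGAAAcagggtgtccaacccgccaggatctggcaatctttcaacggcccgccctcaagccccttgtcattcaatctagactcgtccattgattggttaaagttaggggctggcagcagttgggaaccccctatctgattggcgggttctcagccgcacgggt

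Enzymes that remove and enzymes that add chromatin methylation were listed separately. Of 22 2-oxoglutarate-dependent dioxygenases, 14 fell and 4 rose, with a median of -0.56 (18.2% higher and 63.6% lower, against 39.7% and 38.1% of all genes). The histone demethylase gene Kdm7a (ENSMUSG00000042599, chr6:39136623-39206789 (-)) had 130.2, 202, 220.4, 208 and 211 CPM in clone1 and 22.8, 18.8, 25.2, 30.3 and 30.7 in Rec, a log2 fold change of -2.92 (SE 0.12, adjusted p = 6.85e-18). Clone1 replicate 1 was the lowest of its group by a wide gap. The RNA demethylase gene Alkbh5 fell from 538 ± 38.98 to 183 ± 13.8 CPM, and Kdm3a, also a HIF target, from 284 to 101 CPM. Tet2, an oxidase of DNA methylcytosine, fell from 4.63 ± 0.899 to 2.17 ± 0.196 CPM, and Tet3 had 38.4 and 42.1 CPM (adjusted p = 0.151). Riox1 moved most against the list, rising from 6.59 ± 1.17 to 20.5 ± 2.48 CPM. Of 17 methyltransferase genes, 10 rose and 3 fell (58.8% higher and 17.6% lower, against 39.7% and 38.1% of all genes). The difference between the 2 lists was not tested. Dnmt1, the maintenance DNA methyltransferase, rose from 85.1 ± 5.88 to 229.5 ± 13.9 CPM and its partner Uhrf1 from 70.9 ± 3.85 to 184 ± 8.42 CPM, both also genes of dividing cells. The H3K27 methyltransferase gene Ezh1 fell from 107 ± 9.79 to 36.2 ± 2.59 CPM, while Ezh2 rose from 138 to 164 CPM.

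Basement membrane and integrin genes fell more often than they rose, 16 against 6 of 30, with a median of -0.40 (20% higher and 53.3% lower, against 39.7% and 38.1% of all genes). The paired collagen IV genes Col4a1 and Col4a2 fell together. Col4a1 (ENSMUSG00000031502, chr8:11198423-11312826 (-)) had 12.7, 17.3, 13.4, 14.9 and 21.5 CPM in clone1 and 0.0934, 0, 0.0817, 0.235 and 0.463 in Rec, and Col4a2 went from 12.8 ± 2.48 to 0.0702 ± 0.105 CPM. Another pair, Col4a3 and Col4a4, which form the mature network of the glomerulus and distal tubule, rose, Col4a3 from 11.3 to 25.9 CPM. Nid1 had no count in Rec and 1.93 ± 0.671 CPM in clone1, at least 37.98-fold lower. Col8a1 rose from 60.2 ± 9.82 to 406 ± 24.9 CPM. The beta 1 integrin gene Itgb1 had 1099.6 ± 154 and 1071 ± 74.3 CPM (adjusted p = 0.678).

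Ligands and receptors were taken by pathway. In the growth factor list 28 of 43 fell and 12 rose, with a median of -0.58 (27.9% higher and 65.1% lower, against 39.7% and 38.1% of all genes). Fgf7, a mesenchymal ligand for epithelial receptors, fell from 35.2 ± 2.45 to 0.4996 ± 0.232 CPM, and the EGF family ligand gene Btc from 39.6 ± 2.28 to 3.96 ± 0.577 CPM. Of 15 feedback and response genes of these pathways 9 fell and 4 rose, with Dusp4 going from 342 to 73.6 CPM and Spry4 from 22.9 to 10.2 CPM. In TGF-beta and BMP signalling, 18 of 36 fell and 10 rose (27.8% higher and 50% lower, against 39.7% and 38.1% of all genes). The ligands Bmp4 and Tgfb1 fell, Tgfb1 from 39.9 to 16.1 CPM, the co-receptor gene Tgfbr3 fell from 61.4 ± 8.96 to 1.403 ± 0.452 CPM, and the receptor gene Tgfbr2 rose from 159 ± 21.5 to 468 ± 32.2 CPM. The BMP response genes Id1 and Id3 fell, Id1 from 46.7 to 7.12 CPM. The latent TGF-beta binding protein gene Ltbp2 rose from 0.243 ± 0.217 to 7.13 ± 0.87 CPM. In the Wnt list 9 of 24 rose and 13 fell (37.5% higher and 54.2% lower, against 39.7% and 38.1% of all genes), with Wnt5b up from 0.0347 ± 0.0775 to 4.06 ± 0.234 CPM, Fzd4 down from 16.8 ± 3.72 to 2.12 ± 0.756 CPM and the nuclear effector gene Tcf7 down from 28.96 ± 1.08 to 5.66 ± 0.664 CPM. YAP and TEAD genes were at the background, 8 higher and 8 lower of 21 (38.1% each, against 39.7% and 38.1% of all genes).

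Among interferon response genes, 12 of 23 fell and 5 rose (21.7% higher and 52.2% lower, against 39.7% and 38.1% of all genes). Without Rec replicate 2 or 3 or clone1 replicate 5, 3 rose. The list's median was -0.70, and -0.19 when only these 10 libraries entered the fit. Ifit3 (ENSMUSG00000074896, chr19:34583531-34588731 (+)), an antiviral effector, had 21.7, 15.8, 19.1, 16.8 and 21.8 CPM in clone1 and 0.841, 0, 0.4903, 0.235 and 0.463 in Rec, a log2 fold change of -5.46 (SE 0.23, adjusted p = 1.09e-17). Ifit2 fell from 111 ± 10.4 to 40.2 ± 3.902 CPM, Ifi27 from 7.26 ± 1.47 to 1.33 ± 0.42 CPM and B2m, the light chain of class I antigen presentation, from 237 ± 31.98 to 146 ± 8.03 CPM. Cytokines and chemokines were near the background in the number changed, 9 of 21 higher and 7 lower (42.9% and 33.3%, against 39.7% and 38.1%). Over 2-fold, 7 were higher (33.3%, against 9.12% of all genes) and 3 lower (14.3%, against 12.9%). The neutrophil chemokine gene Cxcl1 rose from 1.53 ± 0.736 to 12.7 ± 1.66 CPM and the interleukin 33 receptor gene Il1rl1 from 7.71 ± 1.17 to 40.7 ± 3.06 CPM, while the monocyte chemokine gene Ccl7 fell from 9.68 ± 2.05 to 0.388 ± 0.1599 CPM. Il33, the ligand of that receptor, fell from 86.95 to 35.8 CPM.

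Of 21 cholesterol synthesis genes 13 rose (11 to 14 over all settings) and 4 fell, with a median of 0.20 (61.9% higher and 19.1% lower, against 39.7% and 38.1% of all genes). Mvk (ENSMUSG00000041939, chr5:114444269-114460591 (+)), which encodes mevalonate kinase, had 8.46, 7.16, 5.94, 5.64 and 7.71 CPM in clone1 and 35.8, 42.2, 38.7, 34.8 and 31.01 in Rec, a log2 fold change of 2.36 (SE 0.12, adjusted p = 1.28e-15). The groups did not overlap. Idi1 rose from 87.8 ± 5.95 to 332 ± 35.8 CPM. Insig1, which holds back the pathway's activators, fell from 665 ± 21.5 to 183 ± 10.3 CPM.

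Kidney lineage factors and tubule transport genes did not follow the epithelial genes. The 9 kidney epithelial markers did, with 7 higher and 1 lower and a median of 1.08 (77.8% and 11.1%, against 39.7% and 38.1% of all genes). These markers include Cdh1, Epcam and keratins. Of 19 lineage factors 6 rose and 10 fell, with a median of -0.48 (31.6% higher and 52.6% lower, against 39.7% and 38.1% of all genes). Pax8 fell from 371 ± 14.3 to 184 ± 12.9 CPM, Eya1 from 116 ± 10.2 to 31.02 ± 2.11 CPM and Gata3 from 27.4 ± 2.56 to 3.32 ± 0.578 CPM. Pax2 rose from 45.4 to 95.9 CPM, Emx2 from 13.4 ± 1.53 to 41.6 ± 3.22 CPM, and Lhx1 from 0.0398 ± 0.089 to 1.98 ± 0.339 CPM. Among 14 tubule transport genes 8 fell and 4 rose, with a median of -0.88 (28.6% higher and 57.1% lower, against 39.7% and 38.1% of all genes). The water channel gene Aqp1 (ENSMUSG00000004655, chr6:55336432-55348555 (+)) had 87.3, 77.3, 74.3, 79.5 and 89.5 CPM in clone1 and 4.11, 3.04, 3.51, 3.76 and 4.51 in Rec, a log2 fold change of -4.40 (SE 0.10, adjusted p = 6.56e-23). The betaine transporter gene Slc6a12 fell from 49.7 ± 5.59 to 2.05 ± 0.264 CPM, and the endocytic receptor gene Lrp2 from 81.7 to 12.6 CPM. Anpep had 1 count in Rec, and its clone1 level (5.41 ± 0.637 CPM) was 323 times as high, with an exact counting interval of 57.5 to 12815. The peptidase gene Mme, also of the proximal tubule, rose from 26.1 ± 4.34 to 130.5 ± 18.8 CPM. Of 32 Hox genes 13 were higher and 8 lower (40.6% higher and 25% lower, against 39.7% and 38.1% of all genes). Hoxc13 fell from 12.3 ± 1.02 to 2.17 ± 0.662 CPM, Hoxd3 rose from 1.25 ± 0.405 to 6.73 ± 0.971 CPM, and Hoxb9, the most counted, had 188 ± 4.97 and 218 ± 12.9 CPM.

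Markers of other kidney cell types were low in both groups. The 8 endothelial markers summed to 8.06 to 12.1 CPM in clone1 and 2.697 to 3.702 in Rec, with Tek at 0 in Rec. The receptor gene Flt1 made up most of the sum in clone1, with 5.07, 6, 6.38, 5.64 and 7.71 CPM, and had 2.06, 0.884, 1.06, 1.41 and 2.14 in Rec. The 7 fibroblast markers summed to 3.81 to 6.93 CPM in clone1 and 1.31 to 1.87 in Rec, with Lum, Col3a1 and Thy1 at 0 in both groups. Leukocyte markers summed to 21.4 to 23.7 and 22 to 27.5 CPM, ranges that overlap, and the 7 smooth muscle and pericyte markers to 10.1 to 13.9 and 2.47 to 4.203, with Pdgfrb at 0 in both. The 2 tested leukocyte markers moved in opposite directions, Csf1r from 13.3 to 20.95 CPM and Cd68 from 7.6 to 2.62 CPM. The 6 podocyte markers summed to 198 to 290.2 and 166 to 202 CPM, most of it Podxl, which tubule cells also make, with Ptpro at 0 in both. Among them Synpo fell from 14.8 to 1.34 CPM. The fibroblast, endothelial and smooth muscle sums thus moved in the direction of the mesenchymal genes, at levels far under the 566 CPM of Vim in clone1. Their part in those results was not tested.

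The other pair of groups in the series, Fh1_fl_fl against clone19, sets cells labelled Fh1 wt against a deletion line and shares no library with Rec and clone1. In it 36.1% of genes were higher and 36.8% lower in Fh1_fl_fl, and 1961 genes (15.5%) changed over 2-fold. Over 2-fold in both comparisons were 1028 genes, 870 in the same direction (305 higher and 565 lower) and 158 in opposite directions. The 870 made up 31.2% of the 2787 genes over 2-fold in Rec against clone1 and 44.4% of the 1961. The difference between the comparisons passed the test for 8405 genes (66.3%). Clone19 replicate 3 stood apart, with 8.202% of its counts in the ribosomal RNA locus Gm42418, against 0.212 to 0.338% in the other clone19 libraries. Without it 1954 genes changed over 2-fold in Fh1_fl_fl against clone19, 863 were shared in the same and 156 in opposite directions, and 8332 differed.

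**Figure D4:**
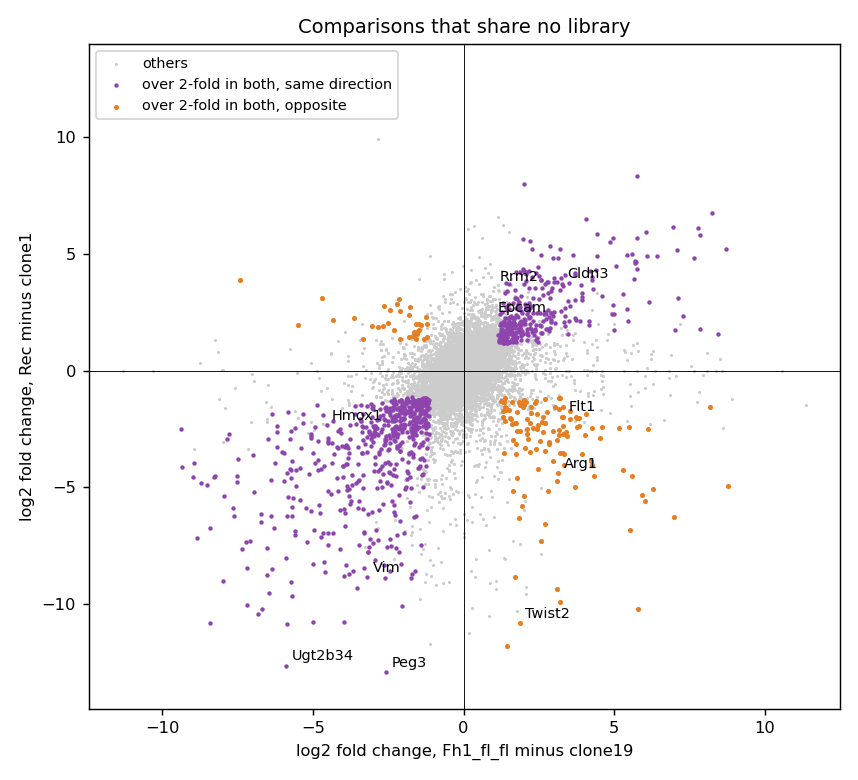
Log2 fold change of each tested gene, Fh1_fl_fl minus clone19 (horizontal) and Rec minus clone1 (vertical). Purple points (870) are over 2-fold in both in the same direction, such as Vim, and orange points (158) over 2-fold in both in opposite directions, such as Arg1.

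The medians of the epithelial, HIF and glycolytic lists had the same sign in both. For the epithelial list the second comparison gave 29 higher and 4 lower, median 0.68, for the HIF targets 5 higher and 24 lower, median -1.23, and for glycolysis 0 higher and 22 lower, median -0.88, where the medians in Rec minus clone1 were 1.29, -1.45 and -1.65. The difference between the comparisons passed for 37 of 46, 22 of 30 and 22 of 23 of their genes (66.3% of all genes). Without clone19 replicate 3 the medians in the second comparison were 0.68, -1.26 and -0.88, and the difference passed for 37, 20 and 20. NRF2 targets were 13 higher and 30 lower, median -0.59, against -2.07 in Rec minus clone1, and the difference passed for 42 of 48 of them, also without that library. Of single genes, Vim had log2 fold changes of -8.85 and -3.19 in the 2 comparisons, Hmox1 -2.34 and -4.54, Slc7a11 -2.48 and -4.12, and Ddit3 -3.18 and -3.91.

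Cell cycle genes differed between the comparisons. In Fh1_fl_fl against clone19 they were 14 higher and 21 lower, median -0.23, against 0.67 in Rec minus clone1, and the difference passed for 38 of 41. The log2 fold change of Rrm2 was 3.60 in Rec minus clone1, higher than in the other comparison by 2.60 (SE 0.089, adjusted p = 5.13e-19), and that of Mcm5 was 2.27 against 0.24. Odc1 rose by 1.81 in one and had -1.01 (adjusted p = 1.09e-14) in the other. The integrated stress response was lower in Fh1_fl_fl than in clone19 almost throughout (3 higher and 34 lower, median -1.31), where Rec and clone1 were divided. Psat1, for example, had 0.31 in Rec minus clone1 and -0.74 in Fh1_fl_fl minus clone19, a difference with an adjusted p of 2.88e-11. Mitochondrial genes were 4 higher and 5 lower, median -0.018 in the second comparison, but mt-Co1 gave -1.16 and -1.15, a difference of -0.016 with an adjusted p of 0.942. Arg1 went in opposite directions, -4.40 and 3.15, and so did Flt1, -1.99 and 3.30 (4.39 without clone19 replicate 3). In clone19 Flt1 had 0.166, 0, 0.35, 0 and 0 CPM, so 3.30 and 4.39 rest on very few reads and are no measure of size.

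Median changes were then taken by chromosome. Over the 428 tested genes of chromosome 12 the median log2 fold change was 0.68, with 310 higher and 63 lower in Rec. Chromosome 10 had a median of 0.45, chromosome 19 of 0.31 and chromosome 8 of 0.30. On chromosome 6, with 598 genes tested, 100 were higher and 372 lower, at a median of -0.53. Single Rec libraries were set against the clone1 mean on log2 CPM with a constant added, not through the fit. They gave medians of 0.61 to 0.66 for chromosome 12 and -0.49 to -0.45 for chromosome 6. In Fh1_fl_fl minus clone19 the medians of these chromosomes were 0.078 and -0.30.

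In windows of 10 Mb with at least 15 tested genes, 20 of 241 had a median above 0.5 and 16 a median below -0.5. The highest lay on chromosome 12 from 20000001 to 30000000 (GRCm38), with a median of 1.21 over 26 genes, and the lowest on chromosome 6 from 50000001 to 60000000, with -0.77 over 56. The window with the highest median holds Rrm2 (from 24708241), whose own log2 fold change was 3.60. Odc1 (from 17544794) lies in the window before it, which had a median of 0.43. Eno2 and Tpi1 are on chromosome 6. Taken relative to the median of each gene's chromosome, a calculation added after the data were seen, the median was 1.14 for the epithelial genes, -1.36 for the mesenchymal genes, -2.12 for the NRF2 targets, -1.56 for the HIF targets, -1.45 for glycolysis and 0.79 for the cell cycle.

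**Figure D5:**
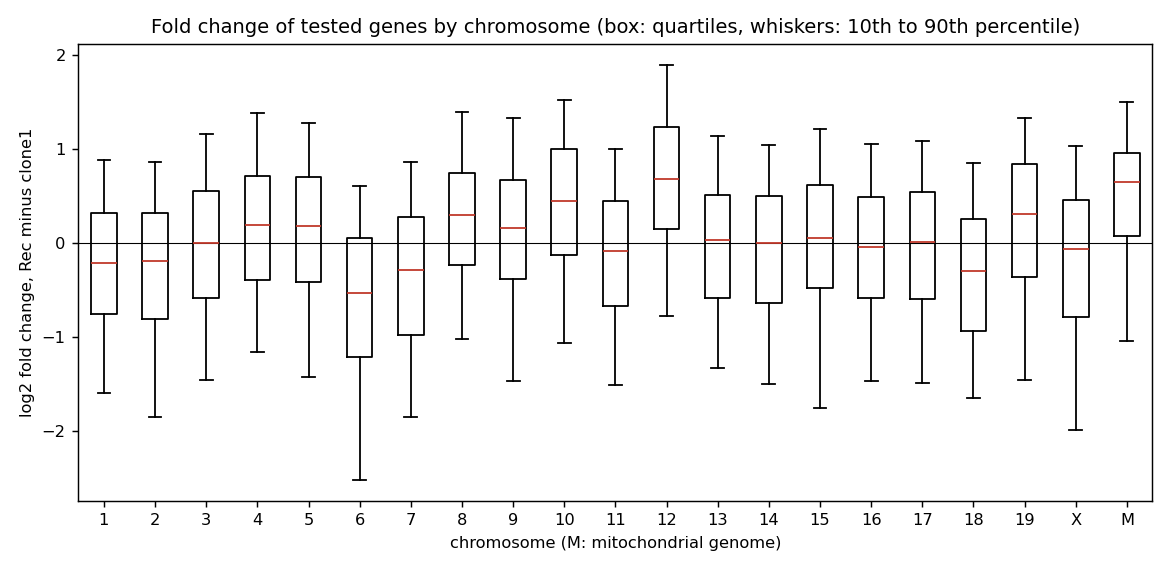
Log2 fold change, Rec minus clone1, of tested genes by chromosome, with the median (red), quartiles (box) and 10th to 90th percentile (whiskers). Chromosome 12 has the highest median of the nuclear chromosomes, 0.68, and chromosome 6 the lowest, -0.53.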

How the data were processed

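RNA of immortalised mouse kidney epithelial cells was sequenced in 20 libraries of 4 groups. Groups came from sample titles and genotype labels. The authors deposited counts, 1 table of whole-number reads per Ensembl gene and library, not normalized. Per the submitters' processing notes the build was GRCm38 and the tools TopHat2 2.0.4, HTSeq 0.5.3p9 and DESeq 1.10.1, and the sources used here give neither their roles nor the annotation and strand setting. Reads without a unique alignment (28.8 to 40.3% of all reads and summary lines), in no feature (3.28 to 6.73%) or ambiguous (0.462 to 0.653%) enter no gene and were left out. Near-identical copies and overlapping genes are therefore uncertain. Replicates differed beyond counting noise (chi-square per degree of freedom 2.63 to 16.5 in Rec and 2.04 to 18.5 in clone1) and none were identical.

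The fit used edgeR 4.0.16 in R 4.3.3. The filterByExpr filter kept 12671 genes and left out 26508, scaling was by TMM, and 1 quasi-likelihood fit, each group with its own mean, took in all 20 libraries, which then share their dispersion estimate (common biological coefficient of variation 9.02%). Changed means an adjusted p under 0.05 in glmQLFTest (Benjamini-Hochberg over all tested genes), and over 2-fold means the same in glmTreat against a log2 bound of 1. At an unadjusted p under 0.05, 10025 genes passed. CPM are on TMM-scaled library sizes. Where a fold of Rec against clone1 is stated, a group at 0 gives a bound against 3 counts over the group. With 1 to 3 counts such a fold carries an exact 95% interval. Genes given only as mean CPM carry neither. Intervals and floors cover counting error only. The script was tested on simulated data. Alternatives were DESeq2 1.42.0 and its size factors, library totals, no or a stricter filter, the 10 libraries alone, a replicate block, and leaving out single libraries. Symbols and coordinates are from GENCODE M21 (37693 of 39179 genes matched) and promoters from RefSeq.

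The 33 lists (831 of 832 members matched) and the comparison were chosen with earlier results of these data known. Named were Fh1, the 12 largest rises and falls over 2-fold among protein-coding genes with no overlap and at least 10 CPM, the 6 most counted in each direction, from each list the 3 largest changes (at least 5 CPM), the most counted member and the one most against its majority, and a fixed set of textbook genes. Some genes that this rule names are not reported here. Named after their values were seen, as examples of a list, were Aldh1l2, Amd1, Angptl4, Atf4, Bmp4, Bnip3, Cdc6, Cdh2, Cdkn1a, Cdkn1b, Cldn4, Cldn7, Col4a3, Col4a4, Cs, Ddr2, Dsg2, Dsp, Dusp4, Egln1, Egln3, Ehf, Elf3, Esrp1, Esrp2, Ezh2, F11r, G6pdx, Gclc, Gclm, Grhl2, Gsta3, Gsta4, Hif1a, Id1, Id3, Idh2, Il33, Jup, Kdm3a, Keap1, Krt19, Lrp2, Mcm7, Mdh2, Mgst1, Mki67, Nfe2l2, Nid1, Ocln, Ovol1, Ovol2, Pax2, Perp, Pkp2, Pkp3, Sat1, Shmt2, Slc1a4, Slc38a2, Slc7a5, Sms, Snai2, Spry4, Srm, Tet2, Tet3, Tgfb1, Twist1, Txnrd1 and Umod.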

Additional observations from a re-analysis of the deposited data

Results flagged for a closer look

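Single libraries stood apart from the other 4 of their group, by Dixon's ratio at the 95% level, in 37 of the 330 checks of named genes (11.2%), where chance alone gives about 1 in 20. Clone1 replicate 1 accounted for many of these. It was above the other clone1 libraries, in CPM, for Ccne1 (28.3 against 22 to 23.5), Cd68 (9.35 against 6.93 to 7.45), Ddit3 (382 against 326 to 338), Fh1 (123 against 108 to 112), Ftl1 (3161 against 2437 to 2486), Hmox1 (649 against 494 to 528), Hoxa9 (111 against 96.1 to 98.2), Ndufa1 (68.5 against 48.7 to 53.7), Ndufa9 (285 against 231 to 241), Odc1 (211 against 176 to 185) and Txn1 (272 against 207 to 219). It was below them for Kdm7a (130 against 202 to 220), Myof (655 against 830 to 878), Suz12 (266 against 313 to 323), Tead4 (78.8 against 96.3 to 101) and Tjp1 (336 against 486 to 510). It also stood apart on the second principal component. Rec replicate 2 was above the other Rec libraries for Atp5b (2585 against 2335 to 2387), Hoxc13 (3.34 against 1.76 to 2.02), Hspa8 (1932 against 1837 to 1857), Ifi27 (2.06 against 1.03 to 1.31), Rrm2 (601 against 558 to 567) and mt-Nd3 (812 against 584 to 636).

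The remaining libraries that stood apart were Cxcl1 in clone1 replicate 5 (0.26 CPM, below the 1.65 to 2.09 of the rest), Emx2 in Rec replicate 5 (47.1 CPM, above the 39.4 to 41.4 of the rest), Gtse1 in clone1 replicate 5 (19.3 CPM, below the 23.3 to 24.7 of the rest), Hoxd3 in Rec replicate 1 (5.04 CPM, below the 6.88 to 7.46 of the rest), Notch3 in Rec replicate 1 (3.74 CPM, above the 2.12 to 2.55 of the rest), Podxl in Rec replicate 1 (191 CPM, above the 155 to 163 of the rest), Sdha in Rec replicate 3 (183 CPM, below the 202 to 210 of the rest), Spp1 in Rec replicate 5 (96.1 CPM, below the 105 to 109 of the rest), Tgfbr2 in Rec replicate 1 (525 CPM, above the 449 to 460 of the rest) and Ugt2b34 in clone1 replicate 5 (766 CPM, above the 543 to 600 of the rest). For 5 genes the library apart was the only one of its group with a count: Aldh3a1 in Rec replicate 2 (0.0982 CPM), Anpep in Rec replicate 5 (0.0578 CPM), Fas in Rec replicate 3 (0.327 CPM), Lhx1 in clone1 replicate 1 (0.199 CPM) and Wnt5b in clone1 replicate 5 (0.173 CPM). Each is a level of very few reads.

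For 4 of the named genes, out of the 158 of all genes given above, the change in Rec against clone1 and that in Fh1_fl_fl against clone19 went in opposite directions, over 2-fold in both, and the test of the difference passed. The fitted difference in log2 fold change was -7.54 for Arg1, -5.29 for Flt1, -13.27 for Fads6 and -12.70 for Twist2. Fads6 and Twist2 had no count in Rec, so their fitted values depend on the prior count and are no measure of size. Flt1 had very few reads in clone19, so its fitted difference is no measure of size either. The adjusted p of the difference was 1.17e-18 for Arg1 and 4.43e-08 for Flt1. Arg1 was at 3.404 ± 0.531 CPM in Fh1_fl_fl and 0.3904 ± 0.125 in clone19, Flt1 at 0.827 ± 0.231 and 0.103 ± 0.155.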

How the results depend on the processing

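Over all alternatives, 9313 to 10942 genes changed and 2440 to 3242 did so over 2-fold, within 1.5 times the reported counts. DESeq2 called 2440 over 2-fold, 2283 of them among the 2787. Leaving out each of the 10 libraries in turn gave 9708 to 9879 changed genes (4788 to 4999 higher, 4754 to 4949 lower), 2713 to 2820 over 2-fold (1085 to 1152 higher, 1595 to 1695 lower), 8246 to 8537 that differed between the disjoint comparisons, and 859 to 885 shared in the same and 149 to 162 in opposite directions. Which direction held more changed genes depended on the setting: the higher share was 51.0% as reported, 49.3% with DESeq2's size factors and 48.7% with DESeq2. Lower genes outnumbered higher ones over 2-fold in every setting run (908 to 1322 higher, 1532 to 1920 lower). With DESeq2, 100 genes over 2-fold in both disjoint comparisons went in opposite directions, against 158, and the cause was not tested.

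The replicate number as a block gave 9838 changed genes and 2781 over 2-fold. Same-numbered Rec and clone1 libraries deviated together with correlations of -0.197 to 0.0476, other pairs with -0.175 to 0.359, and 1 of 5 Rec libraries correlated best with its own number, so the numbers were not taken as pairs.

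In what follows the range over leaving out single libraries is in brackets. The median of the cytokine list turned to -0.016 without Rec replicate 4, -0.019 without clone1 replicate 5 and -0.027 relative to the chromosome [-0.019 to 0.24], that of the Hox genes to -0.0051 without Rec replicate 5 [to 0.23], that of the 3 RNA quality genes to 0.22 with DESeq2, and that of the podocyte markers to 0.17 relative to the chromosome. That of the nuclear respiratory genes ran from -0.059 to 0.073 over leaving out single libraries. Without clone1 replicate 5, Fn1 turned to 0.046 [from -0.17] and Itgb1 to 0.026 [from -0.092]. Tnfrsf12a turned to 0.018 without Rec replicate 1 and to 0.0028 without clone1 replicate 1 [from -0.073]. None of these 3 genes passed the test as reported. Slc16a1 lost its call in 5 settings. The mesenchymal median ran from -1.50 to -1.02 over all settings run but the one relative to the chromosome. The fit of only 10 libraries gives no comparison with the other groups, and DESeq2 gave no adjusted p for 1 ribosomal RNA locus. The spread in Rec and clone1 libraries limits small differences, and low counts limit the genes at or near 0.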
